A study of Mus musculus with 2 samples.

Results

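Gli2 encodes a zinc finger transcription factor that carries the Hedgehog signal to its target genes. The view described here is that of the Gli2 promoter in a capture Hi-C map of wild-type mouse limb buds: the 1 bin of 10 kb that holds the annotated start of the gene, against every other bin of the map from 120.18 Mb up on chromosome 1 (mm9). That bin is 1 of 475 in the whole map and 1 of 422 in the stretch used, so 421 bins were set against it. It spans 120950001 to 120960000.

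Hi-C joins fragments of chromatin that lay near each other in the fixed nucleus, and each sequenced read pair reports 1 such contact. Capture probes restrict the library to a chosen locus, here the surroundings of En1, whose limb expression the series is about. The labels give 2 samples of forelimbs and hindlimbs at E10.5, both wild type, with no strain given. Cells were fixed in 2% PFA and cut with DpnII. Both titles carry the same replicate number, and the deposited tables hold 1 merged map, so no value below has an n or a standard deviation. The map is taken here to pool both samples, although its name lists several runs that the labels do not assign to either. They do not say whether the samples came from separate embryos. They name no sorting of the limb cells, so contacts are averages over all cell types, and neither expression nor binding of any factor was measured here.

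Hedgehog ligands are read through the Gli family, Gli1, Gli2 and Gli3. Without ligand, Gli proteins are held back in the cell or cut to repressors. With ligand, full-length Gli2 moves to the nucleus and acts mainly as an activator. In the limb bud the ligand is Sonic hedgehog from the posterior margin, where it patterns the digits, and Gli3 supplies most of the repressor. Genes of this kind are often read from distant enhancers, which is why the reach of a promoter along its chromosome is of interest.

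Gli2 (ENSMUSG00000048402.8) lies on the minus strand from 120730709 to 120950196, a length of 219 kb with 14 exons in its longest transcript. Transcription therefore runs from high to low coordinates, and the gene body lies wholly on the lower side of its start. The start sits at the lower edge of its bin, which holds 196 bp of the gene, all in exon 1, and 9804 bp of upstream sequence. Of the 9 annotated transcripts, 1 begins at that position. Another 7 begin at 120949916, which is 280 bp further into the gene and already in the next bin down, and 1 begins at 120879165. The next bin down, 120940001 to 120950000, holds the rest of exon 1 and the first part of an intron of 51.1 kb, and is given as a second view where it differs.

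The sequence just upstream of the start is shown because it marks the position from which all contacts below are counted. It is the 300 bp at chr1:120950197-120950496 (NCBIM37, the mm9 assembly), read on the minus strand 5′ to 3′, so that its last base lies next to the first base of the gene. The capitals mark GATC, the site of DpnII, at which fragments were cut and joined.
Gli2 upstream: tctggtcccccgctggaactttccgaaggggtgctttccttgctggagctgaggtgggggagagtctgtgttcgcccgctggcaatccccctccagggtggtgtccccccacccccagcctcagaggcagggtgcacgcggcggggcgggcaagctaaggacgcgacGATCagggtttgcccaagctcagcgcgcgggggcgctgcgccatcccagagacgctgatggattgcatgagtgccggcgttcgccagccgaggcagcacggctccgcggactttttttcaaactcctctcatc

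This stretch was 66.0% G and C and held 24 CpG dinucleotides. The median RefSeq mouse promoter (250 bases before to 50 after the start, GRCm38.p6) had 52.7% and 7 of them. It held 1 GATC site, and 48.0% of the 32851 RefSeq promoters of the same length held at least 1. The RefSeq promoter of Gli2 matched chromosome 1 of NCBIM37 at 1 place and gave the same start, with a difference of 0 bp. The whole bin held 25 GATC sites, equal to the median of 25 over the 422 bins, where counts ran from 11 to 47.

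The bin of the Gli2 start had 31400 read pairs (exact Poisson 95% interval 31054 to 31749). The median bin had 23885.5, and the Gli2 bin ranked 108 among 422. Of its read pairs, 7654 had both ends inside the bin and 23657 joined it to another bin from 120.18 Mb up. A further 89 went to the poorly covered bins below that position, which were not used. Intervals given below are 95% intervals for counting error alone. They leave out any difference between embryos, which a pooled map does not show, and PCR copies without molecular identifiers cannot be told from separate molecules.

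Each contact was compared with an expected count, built from the mean balanced (KR) value of all bin pairs that far apart, scaled back to read pairs with the factors that balanced each of the pair. A ratio of observed to expected read pairs of 1 thus means as many contacts as bins at that distance had on average in this map.

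Contacts of the Gli2 promoter leaned to the side on which its gene lies. Of the 23657 read pairs, 12760 (53.9%, Wilson interval 53.3 to 54.6%) went to lower coordinates, where the gene lies, and 10897 (46.1%, 45.4 to 46.7%) went to higher coordinates. The expected share at higher coordinates was 54.4%, because 344 of the 421 bins lie on that side. With an equal reach of 760 kb on both sides, 59.1% went to the lower side where 50.1% were expected. Without the neighbours within 20 kb, the share at higher coordinates was 38.8% against an expected 56.1%. The observed and expected shares differed by more than counting error in all 3 forms of the count.

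**Figure D1:**
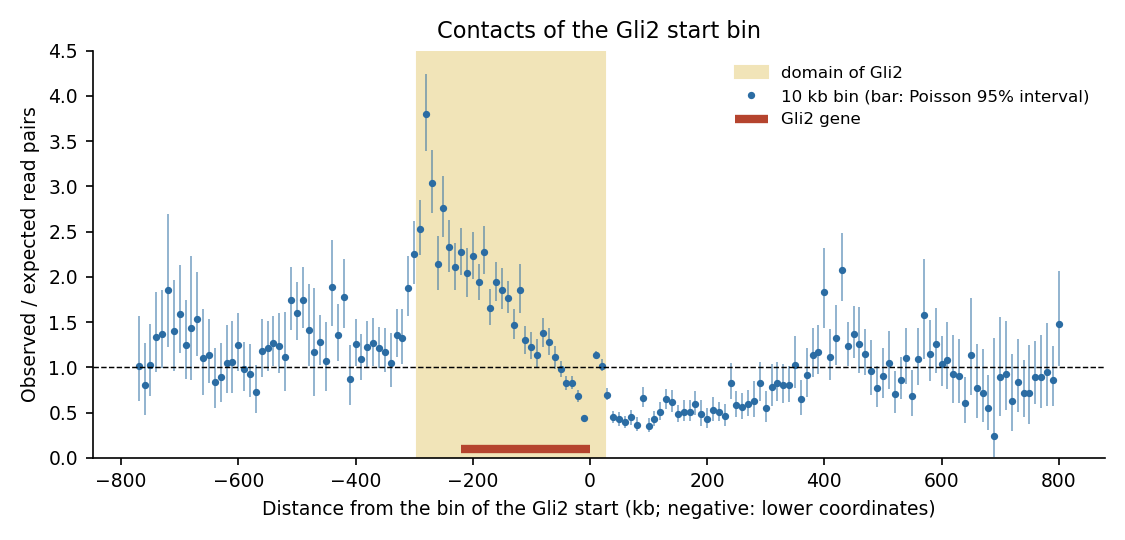
Observed over expected read pairs between the bin of the Gli2 start and each 10 kb bin within 800 kb, against distance in kb; points are bins, bars are exact Poisson 95% intervals, the shaded band is the domain that holds the gene and the red bar is the gene. Values climb along the gene and reach 3.80 past its end, at 280 kb on the lower side. They lie between 0.357 and 0.70 from 30 to 220 kb on the higher side.

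Along the gene body, contacts were below expected near the start and above expected far from it. The share of read pairs that went to the 22 gene body bins was 33.9% (33.3 to 34.5%), against 33.7% expected, so the total hid an opposite course of its parts. The next bin down gave another total: 45.8% (45.2 to 46.4%) of its contacts went to the 21 gene body bins below it, 11132 read pairs where 8375 were expected, a ratio of 1.33 (1.30 to 1.35). The 6 bins at 10 to 60 kb had 3419 read pairs where 5431 were expected, a ratio of 0.630 (0.609 to 0.651). The 7 bins at 70 to 130 kb had a ratio of 1.35 (1.28 to 1.41). The 9 bins at 140 to 220 kb had 2763 read pairs where 1403 were expected, a ratio of 1.97 (1.90 to 2.04).

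Bin by bin, the ratio was 0.436 (0.413 to 0.461) at 10 kb into the gene, 0.681 (0.614 to 0.754) at 20 kb and 0.982 (0.896 to 1.07) at 50 kb. It was 1.23 (1.09 to 1.39) at 100 kb, 1.86 (1.65 to 2.10) at 150 kb and 2.23 (1.98 to 2.5) at 200 kb. The climb was not smooth. The bin at 120 kb, in the long introns of the gene, had a ratio of 1.85 (1.60 to 2.14). Its neighbours had 1.30 (1.15 to 1.46) at 110 kb and 1.47 (1.31 to 1.65) at 130 kb, of which only the first lay apart by its interval. With 16595 read pairs in all, it was also among the less covered bins of the gene.

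Of the 22 gene body bins, 15 (68.2%) had an interval wholly above 1 and 4 (18.2%) had one wholly below 1, while 3 had an interval that held 1. Over all bin pairs of the map at 10 to 220 kb with at least 10 read pairs, 28.1% lay above and 32.4% below by the same measure. Bins of 1 gene are neighbours and are not independent of each other.

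The 3′ end of Gli2 is where most of its coding sequence lies. Exon 2 stands alone 60 kb from the start by bins, exon 3 lies in the bin 120780001 to 120790000, and exons 4 to 14 all lie in the 4 bins from 120730001 to 120770000. Seen from the start, those 4 bins had 295, 230, 299 and 389 read pairs in order of rising coordinates, and ratios of 2.27, 2.04, 2.23 and 1.94. The bin with exon 3 had a ratio of 1.66 (1.47 to 1.87), and the bin between, 120770001 to 120780000, which holds no exon, had 2.28 (2.03 to 2.56). The bin of exon 2 had 1.11 (0.978 to 1.24). The interval of the bin without an exon overlapped those of the 4 bins below it that hold exons 4 to 14, least that of 120760001 to 120770000 (1.75 to 2.14). No direct comparison of these bins was made.

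The bins of the start and of the end of the gene, 220 kb apart, shared 295 read pairs where 130 were expected, a ratio of 2.27 (2.02 to 2.54). This value did not stand out from its surroundings, since the bin just past the end of the gene, at 230 kb, had 2.11 (1.85 to 2.38) and the bin at 240 kb had 2.33 (2.05 to 2.63). Seen from the bin of the gene end, the bins 10 and 20 kb upstream of the start had ratios of 2.32 and 2.41. Their intervals overlapped that of the start bin. The ratio was lower with the bin 10 kb into the gene, at 1.80, and with the bin 30 kb upstream, at 1.72.

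On the upstream side the promoter had higher ratios than on the gene side at 10 and 20 kb, and lower ones from 40 to 290 kb. The bins at 10 and 20 kb above the start had 2812 and 1029 read pairs and ratios of 1.14 (1.10 to 1.18) and 1.02 (0.962 to 1.09). From there the ratio fell to 0.70 (0.638 to 0.768) at 30 kb and 0.448 (0.383 to 0.521) at 40 kb. The 9 bins at 140 to 220 kb above had 734 read pairs and a ratio of 0.518 (0.481 to 0.557), against the 1.97 of the gene side.

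Of 22 bins at 10 to 220 kb above the start, 20 had an interval below 1, and 1 had one above 1. Over all bin pairs of the map at these distances with at least 10 read pairs, 32.4% lay below and 28.1% above. The sides were also compared distance by distance from 10 to 290 kb. The gene side was higher, with intervals that did not overlap, at 26 of 29 distances, among them all 26 from 40 kb on. This count was not made for other bins of the map, so how unusual it is was not tested. The upstream side was higher at 10 and 20 kb, and at 30 kb the intervals met. At 280 kb the difference was widest, with 314 read pairs and a ratio of 3.80 on the gene side against 42 read pairs and 0.627 on the other, a 6.06-fold difference in ratio.

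**Figure D2:**
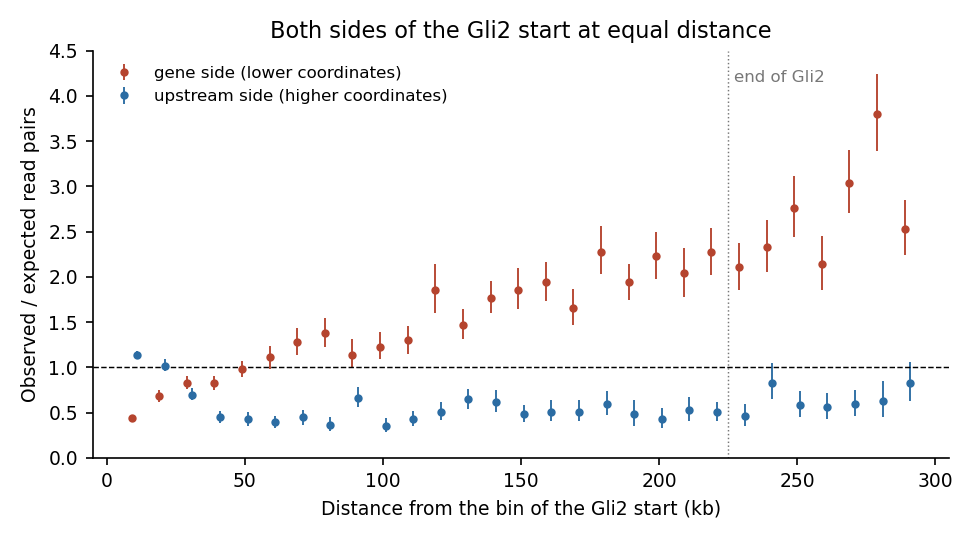
Observed over expected read pairs of the Gli2 start bin at equal distances on the gene side (red) and the upstream side (blue), in kb; bars are exact Poisson 95% intervals and the dotted line marks the end of the gene. From 40 kb on, every gene-side bin lies above its counterpart, and at 10 and 20 kb the order is the other way round.

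The domain that holds the Gli2 start, cut by minima of insulation, ran from 120660001 to 120980000. Its upper boundary bin begins 29.8 kb upstream of the start, while its lower boundary bin ends 290 kb away on the other side, 70.7 kb past the end of the gene. Within the domain lay 58.0% (57.4 to 58.6%) of the promoter's contacts, where 50.9% were expected. The domain was cut from this same map, and the 150 kb window of its upper boundary took in contacts of the start bin. Shares inside and past that boundary are therefore not independent of the cut. The 2 bins between the start and the upper boundary had a ratio of 1.10 (1.07 to 1.14). The 7 bins between the gene and the lower boundary, which overlap no protein-coding gene, had 1856 read pairs where 707 were expected, a ratio of 2.63 (2.51 to 2.75).

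Outside the domain the sides differed. The domain above, which holds the start of Inhbb, received 12.7% (12.3 to 13.2%) of the contacts where 22.5% were expected, a ratio of 0.550 (0.531 to 0.570). The stretch below the domain down to 120.18 Mb received 11.5% (11.1 to 11.9%) where 8.73% were expected, a ratio of 1.28 (1.23 to 1.33). The contacts of the promoter thus fell below expected past the near boundary and stayed above it past the far one. Since the near boundary was placed where contacts across it were low, the fall past it is no separate result. Beyond the Inhbb domain the summed ratio was 0.987 (0.955 to 1.02).

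In steps of 100 kb, the lower side had ratios of 0.715 up to 100 kb, 1.79 from 110 to 200 kb and 2.49 (2.39 to 2.59) from 210 to 300 kb. It then fell to 1.29 from 310 to 400 kb and stayed between 1.16 and 1.46 in the steps down to 120.18 Mb. The higher side had ratios of 0.842, 0.522 and 0.582 in its first 3 steps and 0.949 from 310 to 400 kb. It exceeded 1 by more than counting error in the step from 410 to 500 kb, at 1.23 (1.14 to 1.32), which holds Ralb.

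A partner was called when it lay at 100 kb or more, shared at least 10 read pairs with the start bin and had a lower Poisson bound of the ratio above 1.5. Of 209 bins that could be tested, 19 (9.09%) were called, where 5.88% of all bin pairs of the map passed the same rule. Of 422 bins, 89 had a higher share of called partners, so the number of partners of Gli2 was not unusual in this map. The lower side gave 18 of its 68 tested bins and the higher side 1 of 141. The split was less one-sided under some settings. The higher side held 5 of 34 partners with 5 kb bins, 5 of 31 at a threshold of 1.2, and 10 of 37 with an expected count from distance alone. Under others it was wholly one-sided. The higher side held 0 of 11 with 25 kb bins, 0 of 19 with the start bin and 1 bin on each side, and 0 of 7 at a threshold of 2.

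The 18 partners on the lower side formed 1 cluster from 120640001 to 120840000. It comprised 9 of the 13 gene body bins tested, all 7 bins between the gene and the lower boundary, the boundary bin itself and the bin below it. The weakest of them, 120640001 to 120650000, had a lower bound of 1.57. The nearest bin that missed the threshold was the one with exon 3, with a lower bound of 1.47.

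The strongest partner was the bin 120670001 to 120680000, at 280 kb, with 314 read pairs where 82.6 were expected and a ratio of 3.80 (3.39 to 4.24). It overlaps no protein-coding gene, and the nearest is Gli2 itself, whose end lies 50.7 kb away. Next came 120680001 to 120690000 with 305 read pairs and 3.04 (2.71 to 3.40), and 120700001 to 120710000 with 260 read pairs and 2.76 (2.44 to 3.12). The bin between them, 120690001 to 120700000, was lower, at 201 read pairs and 2.14 (1.85 to 2.45). The first bin of the domain, 120660001 to 120670000, had 267 read pairs and 2.53 (2.24 to 2.85), and the boundary bin below it 167 read pairs and 2.25 (1.92 to 2.62).

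With 5 kb bins the view is that of 120950001 to 120955000, with 14494 read pairs. Its 4 strongest partners at 100 kb or more were neighbours, from 120665001 to 120685000. In order of rising coordinates they had 99, 77, 97 and 63 read pairs and ratios of 4.05, 4.80, 4.24 and 4.27, with lower bounds of at least 3.28. The strongest stretch was thus 20 kb wide, and its 4 values did not differ beyond their intervals.

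The 5 kb bin on the gene side of the start, 120945001 to 120950000, had 92, 42, 51 and 44 read pairs with the same 4 bins and ratios of 3.38, 2.56, 2.03 and 2.81. In the second and the third of them the intervals of both views did not overlap. The upstream bin was the higher in all 4.

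Seen from the other end, the start of Gli2 was not where these contacts peaked. From the strongest partner bin, the ratio was 2.34 (2.05 to 2.65) with the bin 10 kb into the gene, 3.80 with the start bin, and 4.11 (3.68 to 4.57), 4.78 (4.30 to 5.29) and 4.26 (3.81 to 4.75) with the bins 10, 20 and 30 kb upstream. At 40 kb upstream it fell to 1.5 (1.2 to 1.86). The interval of the start bin and that of the bin 20 kb upstream did not overlap.

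From the first bin of the domain the slope was steeper, with 2.53 at the start, 3.69 (3.32 to 4.08) at 10 kb upstream, 6.64 (6.15 to 7.17) at 20 kb and 7.52 (6.98 to 8.09) at the upper boundary bin. The Gli2 start therefore lay on the gene-side flank of a contact between both ends of its domain. Whether its own values came from that contact or from the promoter was not tested.

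**Figure D3:**
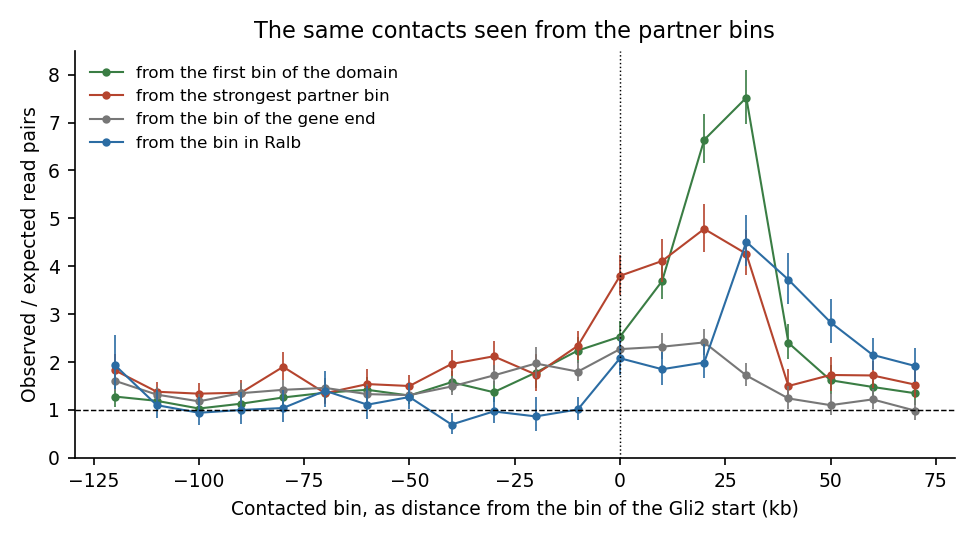
Observed over expected read pairs from 4 partner bins (the first bin of the domain, the strongest partner, the bin of the gene end and the bin in Ralb) to the bins from 120 kb below to 70 kb above the Gli2 start, in kb; bars are exact Poisson 95% intervals. The curve from the first bin of the domain climbs from 2.53 at the start to 7.52 at 30 kb upstream, and that from the bin in Ralb also peaks there, at 4.51.

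The partner on the higher side was the bin 121380001 to 121390000, at 430 kb, inside Ralb, which encodes a small GTPase of the Ras family. It had 127 read pairs where 61.0 were expected, a ratio of 2.08 (1.73 to 2.48). The bin that holds the start of Ralb, 20 kb further on, had 91 read pairs and a ratio of 1.37 (1.10 to 1.68). From the side of the partner, the bins up to 20 kb upstream of Gli2 had ratios of 1.85 and 1.99, the upper boundary bin had 4.51 (4.00 to 5.06), and the bin just inside the gene had 1.01 (0.786 to 1.27). With 25 kb bins the ratio was 1.46 (1.35 to 1.58), and with the bins on each side of the start added it was 1.62 (1.44 to 1.80), both short of the threshold.

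Sequence matches to the core consensus of CTCF, a zinc finger protein found at many domain boundaries, are shown for the domain of Gli2 and its boundary bins, because the strongest contacts of the promoter ran to bins near its lower end. Of these, the first bin of the domain and the strongest partner had, among the bins around the Gli2 start, their highest ratios near the upper end. Both strands were searched for the 12-base consensus, and no other motif was searched. Matches stood in 29 of 422 bins (6.87%). Each line gives the match on its own strand in capitals with 5 flanking bases on either side, from NCBIM37. A match is a sequence only, and binding was not measured here.
Lower boundary bin, minus strand, chr1:120656340-120656351: tcttgCCAGCAGGTGGCagtag
First bin of the domain, minus strand, chr1:120669078-120669089: aattaCCAGCAGAGGGCgccgg
Between the gene and the boundary, minus strand, chr1:120718820-120718831: agaagCCAGTAGAGGGCatcca
Inside Gli2, minus strand, chr1:120866834-120866845: ggggaCCAGTAGAGGGCactgg
Second bin above the start, plus strand, chr1:120971658-120971669: cttctCCACTAGGGGGCcccat
Upper boundary bin, minus strand, chr1:120980425-120980436: ttacaCCACCAGAGGGCagaag
Upper boundary bin, plus strand, chr1:120984299-120984310: cttatCCACCAGGTGGCgatct

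The viewpoint bin itself held 0 matches, which says only that these letters are not in it. The nearest lay 21.5 kb upstream, in the bin from which the strongest partner had its highest ratio of 4.78. The match in the first bin of the domain ended less than 1 kb below the strongest partner bin, in the 5 kb bin 120665001 to 120670000 with its ratio of 4.05. The strongest partner bin itself and the bin in Ralb held no match. Seen from the start, the other bins with a match varied. The match inside Gli2 stood in a bin with a ratio of 1.14 (0.992 to 1.31). The one between the gene and the boundary stood in a bin at 2.33, and the lower boundary bin had 2.25. The second bin above the start had 1.02 and the upper boundary bin 0.70.

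Short-range contacts were low across the start, and with 5 kb bins also just inside the gene. The start bin and the bin below it, whose border lies in exon 1, shared 1272 read pairs where 2915 were expected, a ratio of 0.436 (0.413 to 0.461). The median ratio of 421 adjacent bin pairs was 0.949, and 3 of them were lower than that of Gli2. The start bin and the bin above it had 1.14. With 5 kb bins the pair across the start had 402 read pairs where 947 were expected, a ratio of 0.425 (0.384 to 0.468), and 13 of 829 adjacent pairs were lower. At that bin size the pair above the start was also below 1, with 886 read pairs where 1049 were expected, a ratio of 0.845 (0.790 to 0.902) against a median of 0.927. The 5 kb bin below the start was likewise low with its neighbour inside the gene. They shared 759 read pairs where 1478 were expected, a ratio of 0.513 (0.478 to 0.551). That bin had 5902 read pairs within itself where 2684 were expected, a ratio of 2.20 (2.14 to 2.26). Whether the low value across the start belongs to the start or to that bin was not tested. These comparisons were chosen after the low value at 10 kb had been seen.

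Over a wider span, the 40 kb below the start bin and the 40 kb from it upward shared 6965 read pairs where 10580 were expected, a ratio of 0.658 (0.643 to 0.674). That span takes in the low adjacent pair across the start and the upper boundary bin, so it is not separate from them. Only 12 of 415 positions of the map had a lower value. The position 10 kb lower in the gene had 0.998. Those 10 and 20 kb above the start had 0.802 and 0.688, the upper boundary 0.478, and those 40 and 50 kb above 0.521 and 0.620. The low values thus formed a run from the start past the upper boundary, and some of the 12 lower positions belong to it. The 5 kb bin of the start held 8 GATC sites, against 15 in the bin below, 17 in the bin above and a median of 12. The part of site number in the low value was not tested.

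The direction of contacts was compared between the start bin and its neighbours within 50 kb. Every bin from 50 kb below to 20 kb above the start sent fewer contacts to higher coordinates than expected. The shortfall was widest 10 kb below the start, where 37.1% (36.5 to 37.7%) went up and 57.1% were expected, and 20 kb above it, with 36.9% (36.3 to 37.5%) and 53.9%. At the start bin, 46.1% stood against 54.4%. The upper boundary bin, 30 kb above the start, sent 54.5% up where 53.2% were expected, and the bin after it 65.7% (65.1 to 66.4%) where 53.6% were expected.

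**Figure D4:**
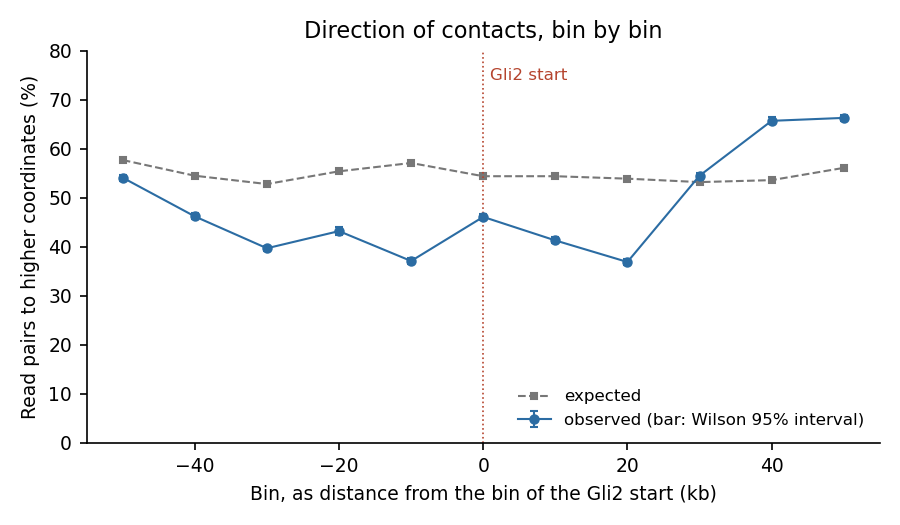
Share of read pairs that go to higher coordinates (%) for the 11 bins from 50 kb below to 50 kb above the Gli2 start; circles are observed shares with Wilson 95% intervals and squares the expected shares. Observed shares lie below expected up to 20 kb above the start and well above expected from 40 kb on.

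The number of called partners also changed along this stretch. It was 0 of 214 tested bins at 50 kb below the start, 14 of 217 at 10 kb below, 19 of 209 at the start, 25 of 215 and 24 of 202 at 10 and 20 kb above, and 69 of 206 at the upper boundary bin, the highest count of any bin from 120.18 Mb up. The start of Gli2 held an intermediate place between its gene body and the boundary.

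The Gli2 start was set against the start bins of the 24 other protein-coding genes of the map from 120.18 Mb up, all of them at 100 kb or more. They fell into 23 bins, of which 16 shared at least 10 read pairs with Gli2. None of the 16 had a lower bound above 1.5. An interval wholly above 1 was found for 6 (37.5%), and an interval wholly below 1 for 1. Of all bin pairs at 100 kb or more, 22.9% had an interval wholly above 1. Among the 209 bins tested from the Gli2 start, 53 (25.4%) did. The median ratio over the 16 was 1.30, against 1.13 over all 209 tested bins.

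On the lower side, Clasp1, which encodes a microtubule plus-end protein, had 47 read pairs and a ratio of 1.54 (1.13 to 2.05). Tcfcp2l1, a transcription factor gene of the grainyhead family, had 77 read pairs and 1.36 (1.07 to 1.7). Tsn, which encodes the nucleic acid binding protein translin, had 28 read pairs and 1.03 (0.681 to 1.48).

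Inhbb, the nearest protein-coding gene on the higher side, encodes a subunit of activins and inhibins. At 360 kb its start bin shared 46 read pairs with Gli2 where 71.2 were expected, a ratio of 0.646 (0.473 to 0.861), the one value wholly below 1. Further on, Gm101, a predicted gene, had 36 read pairs and 1.79 (1.25 to 2.48). Sctr, the secretin receptor gene, had 42 read pairs and 1.48 (1.06 to 2.00). The bin shared by Dbi, an acyl-CoA binding protein gene, and 3110009E18Rik had 30 read pairs and 1.61 (1.09 to 2.3).

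En1, the gene the series is about, encodes the homeobox factor Engrailed-1, which marks the ventral ectoderm of the limb bud. Its start bin, 1540 kb from that of Gli2, shared 5 read pairs with it where 11.1 were expected, a ratio of 0.450 (0.146 to 1.05), so that no difference from expected was detectable at this depth. All bins of the En1 domain together received 425 read pairs from Gli2 where 499 were expected, a ratio of 0.852 (0.773 to 0.937).

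**Figure D5:**
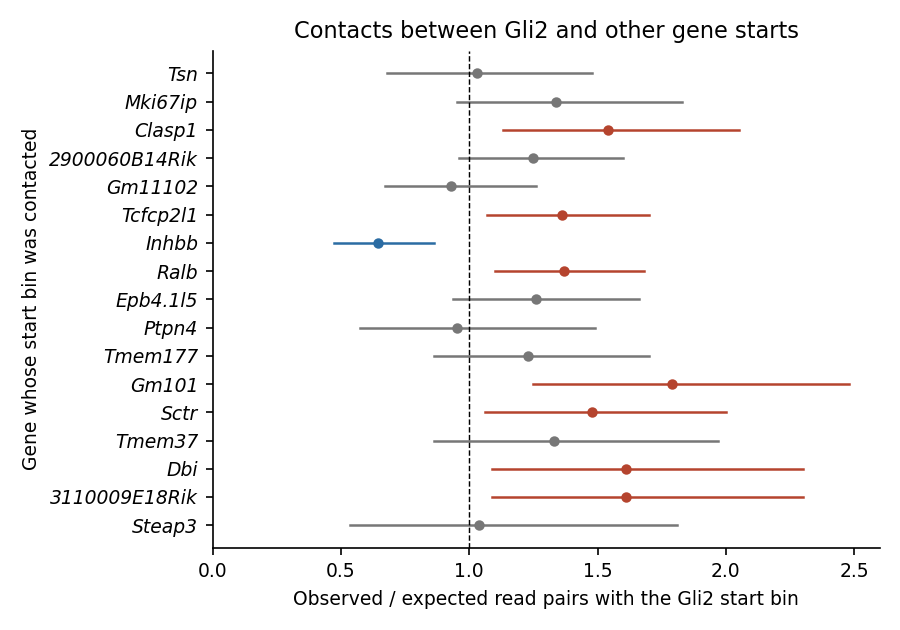
Observed over expected read pairs between the Gli2 start bin and the start bins of the 17 protein-coding genes with at least 10 read pairs, in map order; bars are exact Poisson 95% intervals. Red intervals lie above 1, the blue one (Inhbb) lies below 1, and grey ones hold 1; Dbi and 3110009E18Rik share a bin.

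Long genes offer a comparison for the contacts of a promoter with its own gene. Besides Gli2, 3 protein-coding genes of the map from 120.18 Mb up were at least 100 kb long: Clasp1 (220 kb), Ptpn4 (180 kb) and Epb4.1l5 (104 kb). For gene body bins at 100 kb or more from the start, the ratio was 1.77 (1.72 to 1.83) in Gli2, 1.10 (1.02 to 1.18) in Ptpn4 and 0.927 (0.879 to 0.978) in Clasp1. Epb4.1l5 had a single such bin, at 1.2 (1.05 to 1.36). The interval of Gli2 overlapped none of the other 3. High contacts with the gene body were not particular to the start bin. Over the whole Gli2 gene body, the bins 10 and 20 kb upstream had ratios of 1.16 (1.14 to 1.19) and 1.29 (1.26 to 1.32). Their far gene body bins were not summed alone.

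Start and end of the gene had a ratio of 2.27 (2.02 to 2.54) in Gli2, 1.23 (1.02 to 1.48) in Ptpn4 and 0.837 (0.598 to 1.14) in Clasp1, whose ends lie at the same distance of 220 kb as those of Gli2. Over the whole gene body the order was another. Gli2 had 0.978 (0.957 to 1.000), Ptpn4 0.974 (0.939 to 1.01), Clasp1 1.19 (1.16 to 1.22) and Epb4.1l5 1.23 (1.2 to 1.27). The values of Gli2 and Ptpn4 did not differ beyond counting error. The 2.27 between start and end of Gli2 was not particular to its start bin. The bins 10 and 20 kb upstream had 2.32 and 2.41 with the gene end. Whether the value belongs to the promoter was not tested.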

How the data were processed

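The authors deposited counts of read pairs per bin pair. A second set of deposited tables gives a balanced signal; its label KR was taken to mean Knight-Ruiz balancing. Both exist per bin size, and 5, 10 and 25 kb were used. HiCUP, a mapping quality minimum of 30 and merging are named per the deposited file names. Per the submitters' processing notes, Bowtie2 2.3.4.1, Juicer 1.7.6 and SAMtools were used with mm9. Probe positions were not used here.

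Missing bin pairs were taken as 0. Balancing factors were solved from the ratio of raw counts to the deposited KR signal. Mean KR values per distance were taken over bins from 120.18 Mb up. Domains were bounded by minima of an insulation score (window of 150 kb, prominence of 0.2), and called partners within 2 bins formed a cluster. Gene positions came from GENCODE M1 on NCBIM37. Work was done in Python 3.11.15 with NumPy 2.4.6 and SciPy 1.17.1. The calling rule was also run on Poisson counts simulated from the expected values, with some pairs raised. That simulation held no domains, so it cannot measure false calls in the real map. No p-values were computed, since there is 1 pooled map. The gene, the settings and the rule for named items (Gli2, the clusters of called partners and the gene starts, with Inhbb and En1 in any case) were chosen with earlier results of these data known.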

Additional observations from a re-analysis of the deposited data

How the results depend on the processing

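Leaving out each sample could not be run on a merged map. No paired analysis was possible because the tables hold 1 merged map of 1 group. Changes in shares and ratios were judged against counting error alone, and changes in counts of bins by a fold above 1.5. The causes of these changes were not tested. Among the shares, only that of the gene body crossed its expected value, at 33.8% against 34.2% over the whole map.

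The share at higher coordinates, 46.1%, was 41.6% with 25 kb bins, 40.2% with the start bin and 1 bin on each side, 37.1% from the next bin on the gene side, 40.9% with equal reach and 38.8% without bins within 20 kb. In the same order, with 5 kb bins first, the gene body share, 33.9%, was 34.7%, 34.5%, 37.6%, 45.8%, 37.2% and 35.1%, and 32.5% on KR values. It exceeded expected by more than counting error with 25 kb bins (31.0% expected), with 3 bins (28.8%), without near bins (27.2%) and from the next bin, which departs most. The domain share, 58.0%, was 59.4% with 5 kb bins, 40.9% with 25 kb bins (33.5% expected), 52.1% with 3 bins, 62.8% from the next bin, 55.1% on KR values, 63.6% with equal reach and 45.3% without near bins. The domain itself was cut anew with the bin size, at 120670001 to 120980000 with 5 kb bins and 120675001 to 120975000 with 25 kb bins. Its first 10 kb bin lay outside both, so these 2 shares are of other stretches.

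The 19 called partners became 34 with 5 kb bins and 11 with 25 kb bins, 37 with an expected count from distance alone, and 31 and 7 at thresholds of 1.2 and 2. The strongest partner, at 3.80, was 4.80 with 5 kb bins, 3.34 with 3 bins, 2.34 from the next bin, 4.26 with median KR values and 4.55 with distance alone, in the same bin each time. The ends of the gene, at 2.27, had 1.94 with 5 kb bins, 1.80 from the next bin and 3.51 with distance alone. The 6 bins of gene starts above 1 became 11 with 25 kb bins, 3 from the next bin, 10 with median KR values and 11 with distance alone. The bin in Ralb, examined under alternatives chosen after its value was seen, was 1.01 from the next bin on the gene side.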

Other observations

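At 1 Mb or more the Gli2 start bin had 1482 read pairs, all at higher coordinates, where 1656 were expected, a ratio of 0.895 (0.850 to 0.942). The bin 123020001 to 123030000, at 2070 kb and inside the En1 domain, shared 20 read pairs with Gli2 where 8.34 were expected. Its ratio was 2.40 (1.46 to 3.70), just short of the threshold for a partner. The bin 120510001 to 120520000, at 440 kb on the lower side, missed it as narrowly, with 66 read pairs and a ratio of 1.89 (1.46 to 2.41). Both bins were picked out after their values were seen.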
